A study of Gallus gallus with 24 samples.

Results

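Complement genes of chicken abdominal fat are described here through C1S, C4A and C1QC, set side by side in HG and LG cockerels, males of chicken lines with high and low growth. The genes were picked by symbol with their HG over LG ratios already known, so these ratios are given as a description and without a test. They had 5 of the 19200 spots of the array, of which 10601 carried a gene symbol: 3 spots for C1S and 1 each for C4A and C1QC. All 5 were measured on all 24 arrays and passed the filter for low coverage, as did 16895 spots and 6184 genes in all.

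Both lines come from 1 meat-type population and were bred in opposite directions for body weight. Fed, vaccinated birds without further treatment were sampled every 2 wk from 1 to 11 wk of age. Each 2-colour cDNA array, a glass slide with spotted cDNA clones, carried RNA from the abdominal fat of an HG bird and of an LG bird, matched for age. The 48 birds, 24 per line, made 4 arrays for every one of 6 ages. The HG bird was labelled red on the replicates numbered 2 and 4 and the LG bird on those numbered 1 and 3, so n counts arrays, and each age has both dye orientations. Per the study's methods, HG and LG birds were housed apart until 3 wk, with crushed pellets for LG, and together afterwards, so that at 1 and 3 wk line and housing cannot be told apart.

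Complement is a set of plasma proteins that mark and attack foreign or damaged surfaces through a chain of protein cleavages. In the classical pathway, C1q binds antibody on a surface and switches on the serine proteases C1r and C1s, and C1s then cuts C4 and C2 to form the enzyme that cleaves C3. The liver makes most of the plasma proteins, C1q comes largely from macrophages, and mammalian adipose tissue also expresses complement genes.

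Values are given as log2(HG/LG) with the median of all spots of an array set to 0. Positive values mean that HG exceeded LG by more than the median spot did. A standard error (SE) is that of a linear model with 6 age coefficients and 1 dye coefficient, fitted to all spots or genes in limma. It uses the residual spread pooled over all ages, so it does not measure the spread of the arrays of a single age. The order of the dyes in the deposited ratio was not written beside the values. It was taken as likely red over green, the ratio that the image software named in the methods forms, with the dyes from the labels, and a turned order would exchange higher and lower throughout. Arrays gave 17380 to 18529 measured spots, and the median residual SD was 0.33 for genes. The 3 wk array of replicate 4 stood apart, with 1820 missing spots against 671 to 1126 on the others and an SD of log2 ratios of 1.21 against 0.64 to 1.03. A ratio holds no level, so the tissue could not be checked against adipocyte markers and no level is compared between genes.

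C1S encodes the protease that C1r activates and that cleaves C4 and C2. At 1 wk its ratio, as the mean of 3 spots, was 1.04, 1.55, -0.29 and 0.73 on replicates 1 to 4, which placed HG above LG on 3 of 4 arrays. At 5 wk it was -2.24, -1.76, -1.50 and -0.56, below 0 on every array. The age coefficient was 0.76 (SE 0.25, n = 4) at 1 wk and -1.51 (SE 0.25, n = 4) at 5 wk, 1.69-fold higher and 2.86-fold lower in HG. Among 6184 genes, C1S stood at rank 6148 from the lowest at 1 wk and at rank 14 at 5 wk. No 5 wk array reached the range of the 1 wk arrays, as was so for 1.34% of all genes with the dye coefficient removed, and the 5 wk coefficient minus that of 1 wk was -2.27 (SE 0.35).

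At the ages in between and after, C1S was lower in HG by smaller amounts. The 3 wk values were -0.07, -0.48, -0.07 and -0.95, with a coefficient of -0.39 (SE 0.25, n = 4) that became -0.15 without the array that stood apart. The 7 wk values were -0.90, -0.42, -0.26 and -0.11, and those of 9 wk were -0.53, -0.07, -0.28 and -0.08. All 12 arrays of these ages lay below 0, with coefficients of -0.42 at 7 wk and -0.24 at 9 wk (SE 0.25 each). At 11 wk the arrays gave -0.90, -0.45, 0.15 and -0.36 and spread across 0, with a coefficient of -0.39 (SE 0.25) that ran from -0.63 to -0.25 as single arrays were left out. Over the 6 ages C1S averaged -0.37 (SE 0.10, n = 24) and was lower in HG on 20 of 24 arrays, and this average joins a positive age with 5 negative ones. It was -0.14 (SE 0.10) without the 5 wk arrays.

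**Figure D1:**
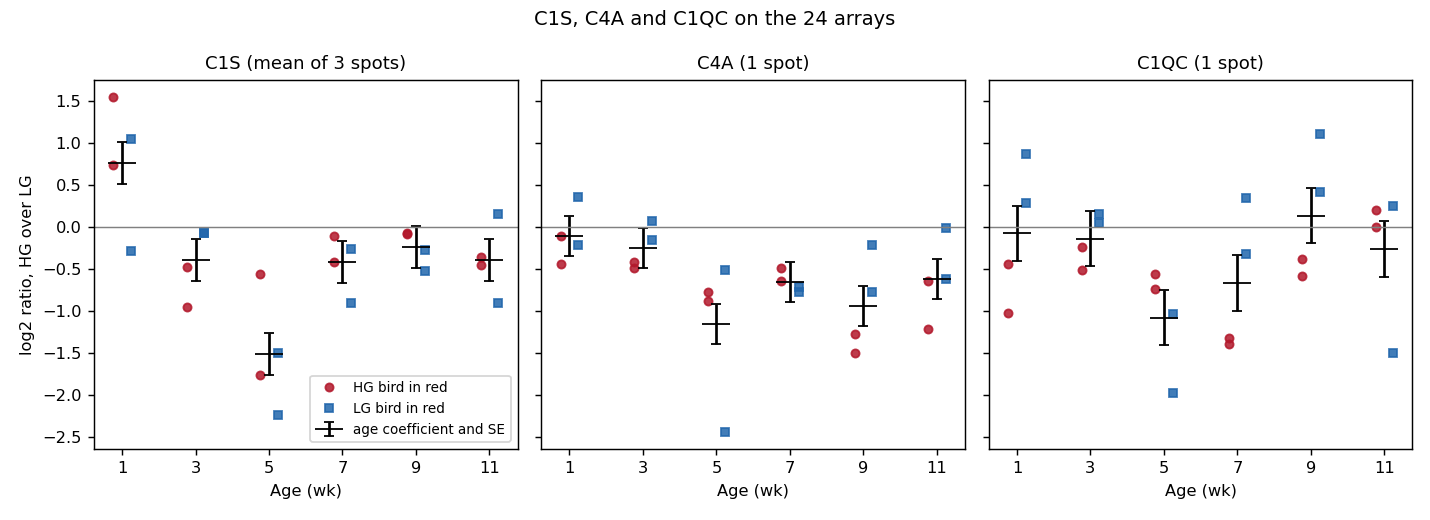
Log2 ratio of HG over LG (vertical axis) of C1S, C4A and C1QC at each age in wk (horizontal axis), with 1 point per array marked by which bird was labelled red, and the age coefficient of the model with its SE in black. C1S lies mostly above 0 at 1 wk and all 3 genes lie below 0 on each of the 4 arrays at 5 wk.

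The 3 spots of C1S did not give the same size of difference. The spot in print block 3 (a print block is the patch of the slide laid down by 1 printing pin) gave 1.25, 2.07, -0.37 and 0.90 at 1 wk, and -3.15, -2.82, -2.06 and -1.08 at 5 wk. The spot in print block 8 gave 1.85, 1.55, -0.09 and 0.69 at 1 wk, and -2.81, -2.42, -1.88 and -0.97 at 5 wk. On both spots each 5 wk array was below each 1 wk array, as on 1.23% of all spots, and replicate 4 was the least negative at 5 wk. Their age coefficients at 5 wk were -2.28 (SE 0.39, n = 4) and -2.02 (SE 0.33, n = 4), 4.85-fold and 4.06-fold lower in HG.

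The spot in print block 46 moved far less. Its 5 wk values were -0.76, -0.04, -0.55 and 0.37 and its 1 wk values were 0.02, 1.02, -0.42 and 0.61. Replicates 2 and 4, with the HG bird in red, were the high ones at both ages. With the dye coefficient removed, the spot spanned -0.45 to -0.04 at 5 wk and -0.01 to 0.61 at 1 wk, without overlap, and the coefficients were -0.24 and 0.31 (SE 0.12, n = 4 each). Its average over the ages was 0.00 (SE 0.05, n = 24), against -0.66 (SE 0.16) for the spot in block 3 and -0.44 (SE 0.14) for that in block 8. The values of the gene are thus means over spots that differ in size.

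**Figure D2:**
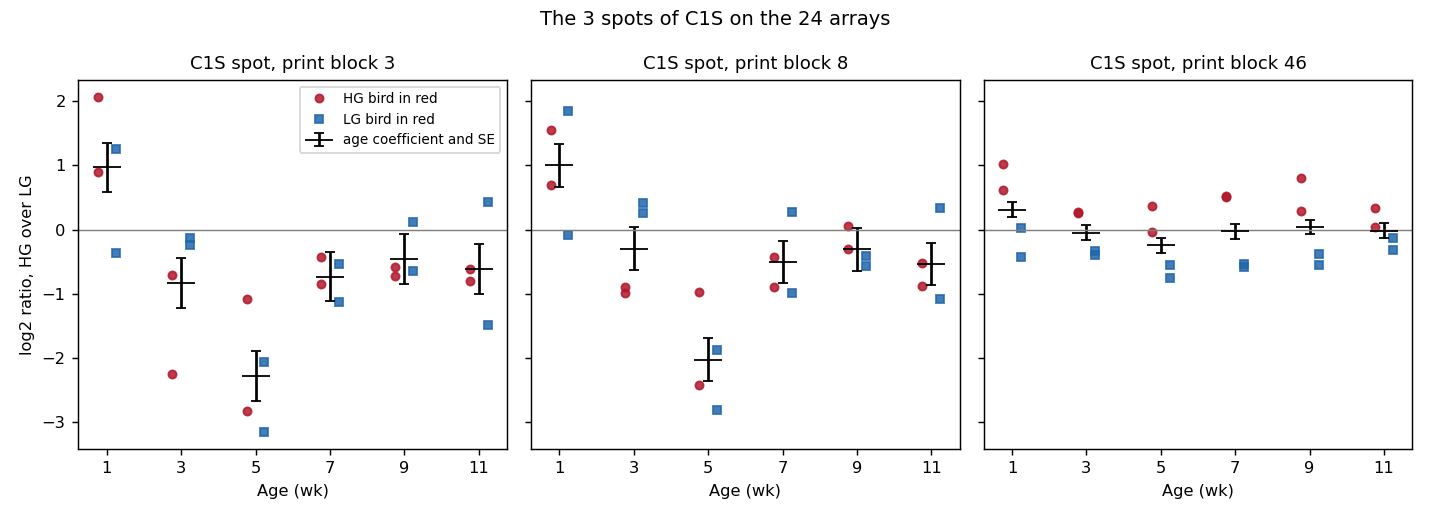
Log2 ratio of HG over LG (vertical axis) of each C1S spot at each age in wk (horizontal axis), with 1 point per array marked by the bird in red, and the age coefficient with its SE in black. The spots of print blocks 3 and 8 reach -3.15 and -2.81 at 5 wk, while that of block 46 splits by dye at every age.

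A dye effect can be tested apart from the line difference, because each age has 2 arrays of each orientation. On the block 46 spot HG was the higher on 11 of 12 arrays with HG in red and on 1 of 12 with LG in red. Its dye coefficient, the red over green bias, was 0.41 (SE 0.05, adjusted p = 1.88e-06, limma with Benjamini-Hochberg adjustment over all spots). Of all spots tested, 49.1% had a dye coefficient past the adjusted threshold of 0.05, so a member that passes is not unusual. In absolute size, the dye coefficients of spots had a median of 0.20 and a 90th percentile of 0.49. The remaining C1S spots did not pass, with coefficients of 0.00 and -0.05. C4A and C1QC were tested in the fit of genes, with adjustment over all genes. They did not pass, at -0.12 (adjusted p = 0.335) for C4A and -0.23 (adjusted p = 0.168) for C1QC. For C1QC, HG was higher on 2 of 12 arrays with HG in red and on 8 of 12 with LG in red. The coefficients of C4A and C1QC passed under some other settings, for C4A in the same direction at -0.20 (adjusted p = 0.0126) without the 5 wk array of replicate 1, and for C1QC at -0.32 (adjusted p = 0.0291) without the 11 wk array of replicate 1.

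Across the 24 arrays, with the dye coefficient removed, the C1S spots of blocks 3 and 8 correlated at r = 0.935, and at 0.828 once age means were removed. Each of them correlated less with the block 46 spot, at 0.712 and 0.718, and at 0.421 and 0.452 once age means were removed. Spots on 1 slide share the same pair of birds, labelling and scan, so these values describe agreement between spots and not between independent birds.

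C4A carries the symbol of complement C4, which C1s cleaves to begin the C3 convertase. It was lower in HG on 22 of 24 arrays and averaged -0.62 (SE 0.10, n = 24), 1.54-fold lower, at rank 28 from the lowest of 6184 genes. At 1 wk the arrays gave 0.35, -0.11, -0.22 and -0.44, and at 3 wk -0.16, -0.42, 0.07 and -0.49. These 8 arrays hold both of its positive values, and the coefficients were -0.11 (SE 0.24) and -0.25 (SE 0.24). That of 1 wk ran from -0.22 to -0.023 as single arrays were left out.

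From 5 wk on, every C4A array was below 0. The 5 wk values were -2.44, -0.78, -0.51 and -0.88, in which replicate 1 stood far below the others. The coefficient of -1.15 (SE 0.24, n = 4), 2.22-fold lower in HG, became -0.65 without that array. With the dye coefficient removed, the SD of the 5 wk arrays was 0.94, against 0.14 for those of 3 wk. The 7 wk values lay close together at -0.72, -0.65, -0.77 and -0.49, with a coefficient of -0.66 (SE 0.24). At 9 wk they were -0.78, -1.28, -0.22 and -1.50, and at 11 wk -0.62, -1.21, -0.01 and -0.65, with the HG-in-red replicates 2 and 4 the lowest at both ages. The coefficients were -0.94 at 9 wk and -0.62 at 11 wk (SE 0.24 each), ranks 21 and 204 from the lowest.

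With the dye coefficient removed, no C4A array of 5 wk overlapped those of 1 wk or of 3 wk. Against 1 wk, 1.34% of all genes had every 5 wk array lower. Against 3 wk, 1.78% of all genes did, C1QC among them. The 5 wk coefficient minus that of 1 wk was -1.05 (SE 0.34), and minus that of 3 wk -0.90 (SE 0.34). The 5 wk arrays overlapped those of 7 wk and 11 wk.

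C1QC encodes a chain of C1q, the part of the C1 complex that binds antibody. It averaged -0.35 (SE 0.13, n = 24), at rank 141 from the lowest, but was lower in HG on only 14 of 24 arrays, and the average was -0.20 without the 5 wk arrays. Its 5 wk values were -1.98, -0.74, -1.04 and -0.56, and 5 wk was the only age at which all 4 arrays were below 0. The 5 wk coefficient was -1.08 (SE 0.33, n = 4), 2.12-fold lower in HG, and -0.68 without replicate 1. The same 5 wk array was the lowest of its age for C1S, C4A and C1QC.

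At the other ages C1QC lay on both sides of 0. At 7 wk the arrays gave 0.34, -1.39, -0.32 and -1.32, with both arrays that had HG in red the lowest. At 1 wk they gave 0.87, -1.02, 0.28 and -0.44, and at 9 wk 1.10, -0.38, 0.41 and -0.59, again split by dye orientation. The 3 wk values ran from -0.51 to 0.15. At 11 wk a single array, replicate 1 at -1.50, stood against 0.00, 0.25 and 0.20. The coefficients were -0.08, -0.14, -0.67, 0.13 and -0.26 at 1, 3, 7, 9 and 11 wk (SE 0.33 each), and those of 1, 9 and 11 wk changed sign when 1 array of that age was left out.

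The 3 genes shared the low ratio at 5 wk and differed elsewhere. That direction at 5 wk is not particular to them. Of all 6184 genes tested, these 3 included, limma called 23 lower in HG at that age and 0 higher, so that count can include them. At 1 wk C1S was at 0.76, C4A at -0.11 and C1QC at -0.08, and at 9 wk C4A was at -0.94, C1S at -0.24 and C1QC at 0.13. Across the 24 arrays C1S correlated with C4A at r = 0.645 and with C1QC at 0.429, and C4A with C1QC at 0.443. Without the 5 wk arrays these were 0.556, 0.0906 and 0.049 over 20 arrays. They also differed by dye orientation, at 0.319, -0.19 and -0.317 on the 12 arrays with HG in red. On the 12 arrays with LG in red they were 0.86, 0.77 and 0.668. The genes read on an array share its birds, labelling and hybridisation, so all such correlations are given as a description.

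The partner genes of each member were on the same arrays. C1R, the protease that activates C1s and the next gene to C1S in the RefSeq gene order of the GRCg7b assembly, was the gene whose ratios were most like those of C1S among 5661 genes measured on all 24 arrays. Their correlation was 0.900, and 0.798 once age means were removed. As the mean of its 2 spots, C1R was higher in HG on 4 of 4 arrays at 1 wk, between 0.08 and 1.06. It was lower on 4 of 4 at 5 wk, between -1.30 and -0.05. Its coefficients were 0.43 (SE 0.18, n = 4) and -0.82 (SE 0.18, n = 4), and between -0.31 and 0.07 at the other ages.

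The 5 wk difference of C1R did not pass the test over all genes (adjusted p = 0.0579), where 0.372% of genes did. Its change with age had an unadjusted p = 0.00341 and an adjusted p = 0.628 in the limma F test, in which 0.0323% of genes passed. C1R had 2 spots that differed as the C1S spots did. The first gave -1.58 (SE 0.33) at 5 wk and 0.59 (SE 0.33) at 1 wk, and the second -0.06 (SE 0.09) and 0.27 (SE 0.09). Taken alone and before removal of the dye coefficient, neither lay on the same side of 0 on all arrays of either age. At 1 wk HG was higher on 3 of 4 arrays for each. At 5 wk HG was higher on 1 of 4 for the first and on 2 of 4 for the second. With the dye coefficient removed, the first spot ran from 0.17 to 1.51 at 1 wk and from -2.72 to -0.05 at 5 wk. The second spot then ran from 0.03 to 0.65 at 1 wk and from -0.23 to 0.08 at 5 wk. The first correlated with the C1S spots of blocks 3 and 8 at 0.897 and 0.866, and with its own second spot at 0.5. With 1 spot per gene in place of the mean, C1R passed at 5 wk (-1.58, adjusted p = 0.0446).

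**Figure D3:**
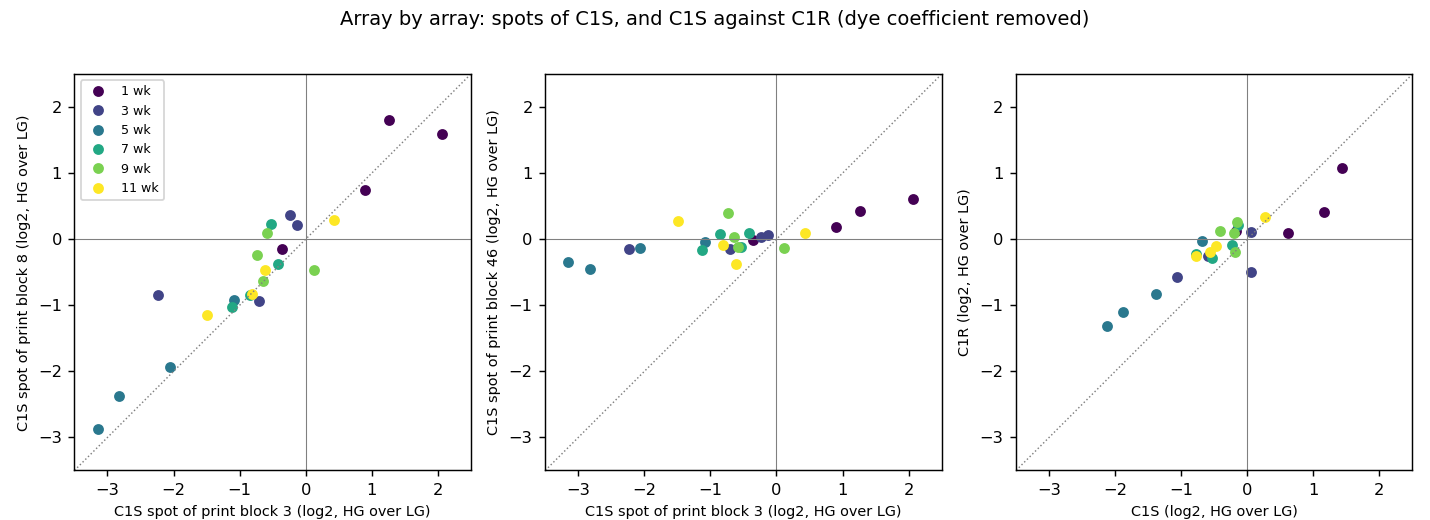
Each point is 1 of the 24 arrays, coloured by age, with log2 ratios of HG over LG on both axes after removal of the dye coefficient and a dotted line of equality. The C1S spots of blocks 3 and 8 follow that line (r = 0.935), the block 46 spot is nearly flat against block 3 (r = 0.712), and C1R follows C1S (r = 0.900) over a narrower range.

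The next 4 genes by likeness to C1S were ERAP1 (r = 0.875), which trims peptides for MHC class I, GPRC5C (0.869), an orphan receptor, FCHO2 (0.866), which acts in clathrin endocytosis, and USP41 (0.862). Each was positive at 1 wk, between 0.37 and 1.00, and negative at 5 wk, between -1.38 and -0.64. They were picked for likeness to C1S over these same arrays, so the shared course is not a separate result. The other measured neighbours of C1S in the gene order had negative coefficients at both ages. PHB2, a mitochondrial prohibitin, was at -0.50 at 1 wk and -0.10 at 5 wk. LPCAT3, a phospholipid acyltransferase, was at -0.82 at both. Its average over the ages had an SE of 0.29, so whether it followed C1S is uncertain. CLSTN3, a calsyntenin 3 genes away, was lower in HG over the ages (-0.27, SE 0.06, adjusted p = 0.0321, limma), with -0.28 at 1 wk and -0.41 at 5 wk.

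The array also held a second C4 gene, listed as C4. In the RefSeq order C4 lies beside BF2, an MHC class I gene of the chicken B locus, whereas C4A lies elsewhere, between STOML3 and FREM2. Clone sequences were not used here, so whether the C4A spot also binds RNA of C4 was not checked. C4 did not follow C4A in the direction of its average. It averaged 0.13 (SE 0.07, adjusted p = 0.460), was higher in HG on 19 of 24 arrays and stood at -0.14 at 5 wk and 0.46 at 9 wk, where C4A was at -1.15 and -0.94. The 5 wk arrays gave -1.19, 0.21, 0.29 and 0.14, so that only replicate 1 was negative. Without that array C4 was at 0.24 at 5 wk and passed over the ages (0.20, adjusted p = 0.00518, limma), with an adjusted p between 0.00518 and 0.969 over all alternatives. Their correlation of 0.520 over 24 arrays was -0.197 over the 20 arrays without 5 wk. Once age means were removed it was 0.845 over the 24 arrays, on which both genes were lowest at replicate 1 of 5 wk. The 2 spots of C4 also differed, averaging 0.28 (SE 0.12) and -0.01 (SE 0.05). The measured neighbours of C4A, NHLRC3 and UFM1, averaged 0.11 and 0.05, with adjusted p of 0.691 and 0.761.

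C1QB encodes another chain of C1q and is the gene next to C1QC. It averaged -0.06 (SE 0.06, adjusted p = 0.764), with -0.22 (SE 0.16) at 5 wk where C1QC was at -1.08. Its 2 spots correlated with each other at -0.259. On the first spot all 4 of the 5 wk arrays were below 0, between -0.65 and -0.36. On the second they spanned -0.47 to 0.57, with the HG-in-red arrays the high ones. With the dye coefficient removed, the first spot ran from -0.81 to -0.2 and the second from -0.1 to 0.2. As the mean of both spots C1QB correlated with C1QC at 0.619, and at 0.553 without 5 wk. The third chain gene, C1QA, was not measured here.

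**Figure D4:**
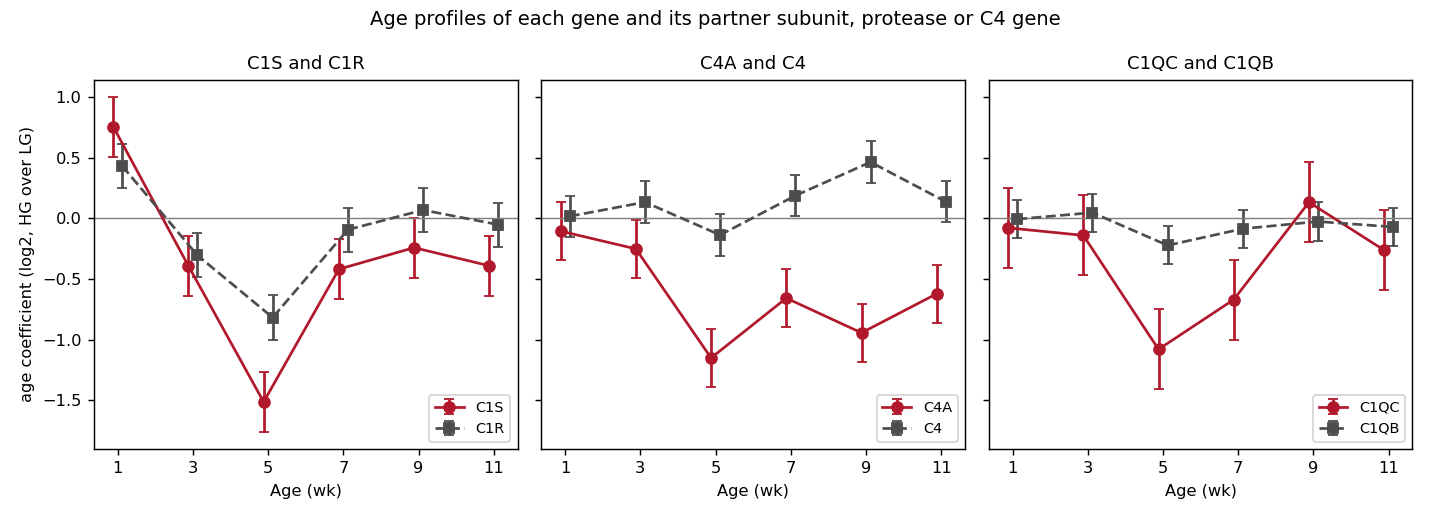
Age coefficients of the log2 ratio of HG over LG (vertical axis, SE bars, n = 4 arrays per age) against age in wk (horizontal axis) for C1S with C1R, C4A with C4, and C1QC with C1QB. C1R follows C1S from 0.43 at 1 wk to -0.82 at 5 wk, while C4 and C1QB stay between -0.22 and 0.46 at every age.

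The genes most like C4A were ADD3 (r = 0.764), a membrane skeleton adducin, SOD3 (0.739), the extracellular superoxide dismutase, VWA5A1 (0.738), GPRC5C (0.728) and PRDX6 (0.727), a peroxiredoxin. Without the 5 wk arrays SOD3, VWA5A1 and PRDX6 were at 0.387, 0.2 and 0.37. Those most like C1QC were CCL26 (0.861), a chemokine, TGFBI (0.759), an extracellular matrix protein, TCF7L2 (0.759), a transcription factor of Wnt signalling, TNFAIP2 (0.729) and ISLR (0.722). CCL26 kept 0.796 without 5 wk. Only GPRC5C appeared for more than 1 of the 3 genes.

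Of the 60 other complement genes listed, 23 were measured. None passed the limma test for a line difference over the 6 ages, against 2.04% of all genes, and 2 had an unadjusted p under 0.05, as had 757 of 6184 genes. Of the 23, 10 were positive and 13 negative, with a median of -0.01 against 0.02 for all genes tested. At 5 wk 16 were negative and 7 positive, with a median of -0.04 against 0.03 for all genes, and none passed, with 1 (C1R) at an unadjusted p under 0.05, as had 451 of 6184 genes. None passed for a change with age, where C1R and C8A had an unadjusted p under 0.05, as had 301 of 6184 genes.

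By role, 4 of 11 listed lectin pathway genes were measured, and they averaged between -0.06 and 0.16 over the ages. All 4 were negative at 5 wk, between -0.62 and -0.03. COLEC10, a collectin that recognises sugars, had the highest average of the 23, at 0.16 (SE 0.07, adjusted p = 0.394, limma). MASP1, the lectin pathway protease related to C1s, had -0.06 (SE 0.31), with -1.03 at 1 wk and 0.84 at 11 wk. C3, the convertase substrate that all pathways share, averaged -0.19 (SE 0.13, adjusted p = 0.608, limma) and stood at -0.43 (SE 0.31) at 5 wk. C2, cleaved by C1s, averaged 0.04 (SE 0.21), and its 3 wk arrays ran from -1.28 to 4.32. The terminal pathway genes C8G and C8A, parts of the membrane attack complex, averaged -0.39 (SE 0.30, adjusted p = 0.667) and -0.19 (SE 0.14, adjusted p = 0.645).

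Of 9 regulators, 7 were positive over the ages. CFI, which cleaves C3b and C4b, was at 0.11 (SE 0.13, adjusted p = 0.776). VTN, vitronectin, which blocks the attack complex, was the lowest regulator at -0.36 (SE 0.14, adjusted p = 0.249) and had the lowest adjusted p of the 23 genes. SERPING1, the inhibitor of C1r and C1s, was at -0.05 (SE 0.18, adjusted p = 0.941) over the ages, -0.47 (SE 0.45) at 1 wk and -0.03 (SE 0.45) at 5 wk, with wide spread between arrays. The receptors ITGB2 and C1QBP were at -0.07 and -0.01. The 7 measured proteins with a C1q domain outside complement, adiponectin (ADIPOQ) among them, ran from -0.06 to 0.38, and none passed.

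**Figure D5:**
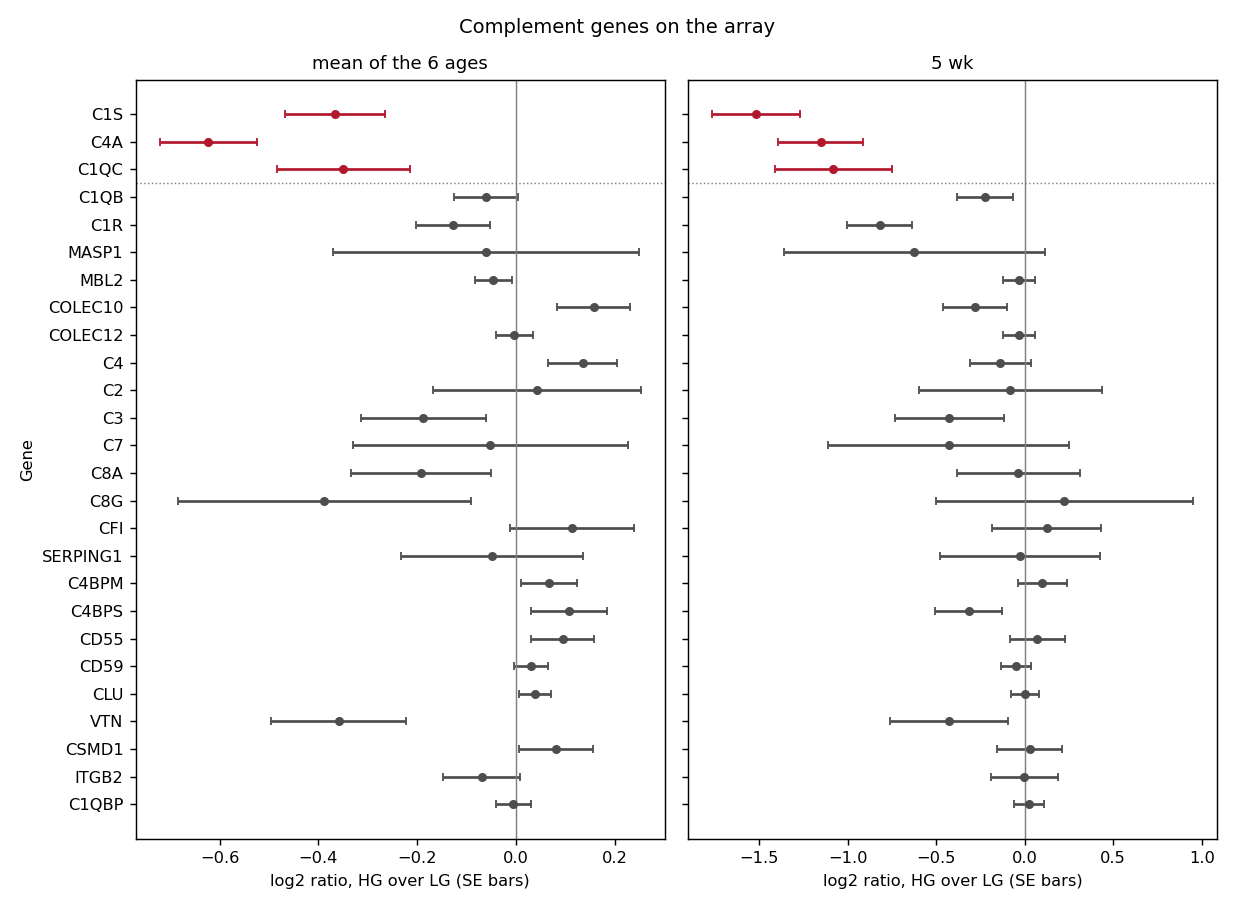
Log2 ratio of HG over LG with SE bars (horizontal axis) as the mean of the 6 ages (left, n = 24 arrays) and at 5 wk (right, n = 4), for C1S, C4A and C1QC above the dotted line, picked with these ratios known, and the 23 other measured complement genes below it. None of the 23 passed the test in either panel, and C1R at -0.82 is the lowest of them at 5 wk.

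Among 9 measured genes of the MHC and antigen presentation list, B2M (-0.49, SE 0.11, adjusted p = 0.0155), BF1 (-0.33, SE 0.07, adjusted p = 0.0219), BF2 (-0.21, SE 0.05, adjusted p = 0.0252) and DMA (-0.38, SE 0.09, adjusted p = 0.0282) were lower in HG over the ages, 4 of 9 where 2.04% of all genes passed in either direction. The list was chosen with earlier results of these data known, so this count is a description and not independent support. B2M and BF1 correlated with C1S at 0.732 and 0.751, while BF2 did so at 0.028. At 1 wk B2M and BF1 were at 0.49 and 0.40, and at 5 wk both were at -0.75.

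Markers of other cells were read beside these values. Over all 6184 genes tested, 3545 were positive over the ages and 3704 at 5 wk. In whole tissue, fewer cells of a type and less RNA per cell cannot be told apart. Hepatocyte markers, for cells that make much complement, were negative for 11 of 12 genes over the ages (median -0.36, from -0.75 for F2 to 0.00 for KNG1), and 1 of them, APOA1, passed. At 5 wk 11 of 12 were negative with a median of -0.75, and their mean per array ran from -1.68 to -0.12 on the same 4 arrays. ALB, albumin, correlated with C1S, C4A and C1QC at 0.0747, -0.0599 and 0.143 over the 24 arrays. It was the only one of these markers so compared, and its 1 wk arrays ran from -3.33 to 2.71. The part of liver-type RNA in these values was not tested.

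Of 8 markers of macrophages, a main source of C1q, 7 were positive over the ages (median 0.06) and none passed. At 5 wk 5 were positive and 3 negative, and their mean per array ran from 0.05 to 0.13, beside C1QC values of -1.98 to -0.56. The part of macrophage number in these values was not tested. Leukocyte markers were negative for 3 of 3 genes (median -0.10, none passed). Adipocyte markers were positive for 5 of 6 and fibroblast markers for 9 of 9 over the ages (medians 0.08 and 0.18, none passed), and at 5 wk their mean was below 0 on 3 of 4 arrays each.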

How the data were processed

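RNA of HG and LG abdominal fat was hybridised to 24 arrays of 2 colours, with groups, ages and dyes taken from the sample labels. The deposited values are log2 ratios per spot. The study's methods describe LOWESS normalization by the authors, but the deposited array medians ran from -0.336 to 0.32, so the values were centred here on each array's median. Spot intensities were not used here, so LOWESS and a filter on dim spots could not be applied, and the number of arrays limits precision. Missing ratios (20191 values) and those at the ceiling of 16.61 (2190) were left out. The annotation of the platform named 10601 spots after its last 2 numbers were exchanged, since in that order annotated spots were missing on 0.621 and unannotated spots on 1.837 arrays on average, a wider gap than the 1.121 and 1.22 arrays of the order as given. All 5 member spots had a current RefSeq identifier of the same symbol.

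Spots with 3 or more measured arrays per age were kept and averaged by gene. The linear model (limma 3.58.1, R 4.3.3, lmFit and eBayes) had a coefficient for each of 6 ages and 1 for dye, 17 residual degrees of freedom and Benjamini-Hochberg adjustment over all spots or genes at 0.05. The code was tested on simulated data. The average over ages is the mean of the age coefficients, and a change with age is an F test over their differences. The SE is the model's. Per-array values are before removal of the dye coefficient unless stated.

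The members and gene lists were chosen with earlier results of these data known. Named are the members, the listed complement genes (values for those called and the 3 highest and 3 lowest averages; C2, C3, MASP1, SERPING1, ITGB2 and C1QBP were added for their roles after their values were seen), the 5 genes most like each member by Pearson r, and measured genes within 3 places of a member, with C4 added. Alternatives were uncentred values, no dye coefficient, the replicate number as a block, array weights, no filter, spots on all 24 arrays, 1 spot per gene and leaving out each array. Centring by print block and leaving out 5 wk were chosen after seeing the data.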

Additional observations from a re-analysis of the deposited data

Results flagged for a closer look

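An array far from the other 3, with the dye coefficient removed, was looked for in 42 sets of 4 arrays of an age. The sets included C1S and its spots, C4A and C1QC but not every gene and spot described, and 3 sets had one. Chance marks about 1 in 20 such sets. C4A at 5 wk had replicate 1 at -2.56, with the others between -0.76 and -0.63. C1S at 9 wk had replicate 1 at -0.41, with the others between -0.20 and -0.16. The C1S spot of print block 3 at 9 wk had replicate 3 at 0.12, with the others between -0.73 and -0.59. C4 at 5 wk, which was not among the sets, had replicate 1 at -1.22, with the others between 0.17 and 0.26.

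As the mean of 2 spots, C1R was above 0 on all 4 arrays at 1 wk and below 0 on all 4 at 5 wk. Before removal of the dye coefficient, neither spot alone did so at either age. With it removed, the first spot did so at both ages and the second at 1 wk only. The coefficients of the mean differed by 1.25 (-0.82 at 5 wk and 0.43 at 1 wk). That single difference was not tested. The F test over all ages gave an adjusted p of 0.628.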

How the results depend on the processing

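No line difference of C1S, C4A or C1QC over the 6 ages changed direction under any alternative run. With 1 spot per gene C1S was -0.66 over the ages and -2.28 at 5 wk. Without the 5 wk arrays C1S averaged -0.14 and C1QC -0.20. Leaving out 1 array at a time gave -0.42 to -0.31 for C1S, -0.66 to -0.54 for C4A and -0.40 to -0.26 for C1QC over the ages, -1.81 to -1.30 for C1S, -1.34 to -0.65 for C4A and -1.35 to -0.68 for C1QC at 5 wk, and -0.33 to 0.17, -0.12 to 0.31 and -0.51 to 0.25 for C1QC at 1, 9 and 11 wk. Dye coefficients then ran from -0.20 to -0.084 for C4A and from -0.32 to -0.19 for C1QC. Centred on print block medians, C4A's was -0.33 (adjusted p = 0.00963). Without the 5 wk arrays it was -0.21 (adjusted p = 0.0247) and C1QC's was -0.36 (adjusted p = 0.0381).

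The number of other complement genes called at 5 wk was 1, C1R, with uncentred values (-0.88), array weights (-0.81), 1 spot per gene (-1.58), print block centring (-0.83), and without replicate 2 of 1 wk or replicate 4 of 5 wk, with a range of 0 to 1 leaving out 1 array. Over the ages it was 1, C4, without the 5 wk arrays or without their replicate 1 (range 0 to 1). None was called for a change with age under any of them. Arrays of the same number did not pair across ages: their deviations correlated at a median of 0.256, against 0.242 for arrays of another number and the same dye orientation. With the replicate block C1S stayed at -0.37 (SE 0.11) and the counts stayed at 0. The number of arrays, 4 per age, limits precision.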
